A study of Mus musculus with 8 samples.

Results

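The pulmonary vascular tone genes are 9 genes whose products set how strongly lung vessels contract or relax: the nitric oxide synthase *Nos3*, the peptide endothelin-1 (*Edn1*) and its receptors *Ednra* and *Ednrb*, the angiotensin-converting enzyme *Ace* and the angiotensin receptor *Agtr1a*, the soluble guanylyl cyclase subunits *Gucy1a1* and *Gucy1b1*, and the phosphodiesterase *Pde5a*. They were picked by symbol, and all 9 were found among the 55416 genes of the count data. RNA-seq had been made from the lungs of 8 female C57BL/6 mice (C57BL/6J in the paper) aged 6 to 8 weeks, each a separate animal. It was made to ask how endotoxin shock alters the lung transcriptome and how YW3-56, an inhibitor of protein arginine deiminases, changes that response. The LPS group (mice 1, 6 and 7) received lipopolysaccharide at 35 mg/kg into the peritoneum. The dual-treatment group (mice 2 and 5) was given YW3-56 at 10 mg/kg in DMSO shortly before the same LPS dose. The control group (mice 1, 2 and 4) received the solvents, DMSO and saline. One side of the lung was taken about 24 h after LPS, so each library mixes vessels, airways, alveoli and blood cells. In the paper's survival experiment, median survival was shorter than 24 h after LPS alone and longer after dual treatment. Whether survival to sampling or the stage of illness affected the libraries was not tested. Total counts ran from 19061949 to 20908608 per library.

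In lung vessels, endothelial cells make nitric oxide, which enters neighbouring smooth muscle and pericytes and switches on soluble guanylyl cyclase, a dimer of an alpha and a beta subunit. The cyclic GMP that results relaxes the vessel until phosphodiesterase 5 breaks it down. Endothelin-1 and angiotensin II, which ACE releases on the surface of lung capillaries, act in the opposite direction through receptors on smooth muscle, while the endothelin B receptor on endothelium takes up endothelin-1 and triggers nitric oxide release.

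Levels are given as CPM, read counts scaled to a common library size with TMM factors. Each change is a log2 fold change (log2FC) from edgeR's quasi-likelihood test, and each adjusted p is from that test with Benjamini-Hochberg adjustment over 18560 tested genes, among which were all 9 genes. A gene was called when this adjusted p was under 0.05. Counts of called genes in pathway and marker lists are to be read beside the shares called over all tested genes, which are given with each comparison. The comparisons share libraries: the control mice serve LPS vs control and dual treatment vs control, and the LPS mice serve LPS vs control and dual treatment vs LPS, so values side by side are not independent.

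LPS mice 6 and 7 stood apart from the other 6 libraries. The summed level of 10 skeletal muscle markers was 545 and 1390 CPM in them, against 21.4 CPM in LPS mouse 1, 10.9 to 21.1 CPM in the control group and 7.03 and 9.31 CPM in the dual-treatment group. *Acta1*, the most abundant of these markers in mice 6 and 7, was at 210 and 600 CPM there and below 1 CPM in the others. For 10 markers of squamous epithelium the sums were 824 and 2160 CPM in LPS mice 6 and 7 and between 36.6 and 80.5 CPM elsewhere, with *Krt4* at 293 and 819 CPM and *Krt13* at 286 and 887 CPM in these mice. The most abundant squamous marker in the other 6 libraries was *Sbsn*. All 9 tested skeletal muscle markers and 7 of the 10 squamous markers were called higher in LPS vs control, and none of the markers was at 0 in all libraries. For the 9 genes, results that use the LPS group are therefore also given with LPS mouse 1 as the only LPS library, which is then assumed to vary like the other groups. The same holds for the remaining dual-treated mouse wherever a result is given without mouse 2 or 5 of that group, so an adjusted p from such a fit takes its spread from the other groups. For other genes and lists this fit is not given.

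LPS vs control asked how endotoxin shock changed the vascular tone genes. *Edn1* rose, and *Ednra*, *Ednrb*, *Ace*, *Agtr1a*, *Gucy1a1*, *Gucy1b1* and *Pde5a* fell, which makes 8 of 9 genes called, 1 up and 7 down. Over all tested genes 66.5% were called, 32.6% up and 33.9% down, so the number called among the 9 says little by itself, and the sizes are of more interest. With a fold change over 2 added, 1 gene was up and 5 were down, against 17.9% and 21.3% of all tested genes. The median log2FC was −2.04 over the 9 genes and −0.01 over all tested genes. With LPS mouse 1 as the only LPS library 8 of the 9 genes and 10687 of 19272 tested genes were called.

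Dual treatment vs control asked how far lungs of mice given both agents still differed from those of mice given the solvents only. Here 5 of 9 genes were called, all lower (*Ednra*, *Ednrb*, *Gucy1a1*, *Gucy1b1* and *Pde5a*), against 16.1% of all tested genes, 9.13% of them up and 7.02% down. Only *Ednrb* also passed a fold change over 2, a criterion met by 5.25% of tested genes upward and 1.9% downward. The median log2FC was −0.42 over the 9 genes and 0.00 over all tested genes.

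Dual treatment vs LPS asked what differed when YW3-56 was given before LPS. The methods describe no DMSO for the LPS group, so YW3-56, its solvent and the added injection cannot be told apart here, and LPS vs control differs in DMSO as well. *Ace*, *Agtr1a*, *Gucy1a1*, *Gucy1b1* and *Pde5a* were higher and *Edn1* was lower, which makes 6 of 9 genes called, against 59.1% of all tested genes, 31.7% up and 27.4% down. With a fold change over 2, 4 genes were higher and none lower, against 19.8% and 14% of tested genes. The median log2FC was 0.55 over the 9 genes and 0.06 over all tested genes, and with LPS mouse 1 as the only LPS library 6 of the 9 genes and 9460 of 19272 tested genes were called, with *Nos3* gained and *Agtr1a* lost. When libraries were scaled by their total count alone, the median of all tested genes moved to −0.29 in LPS vs control and to 0.38 in dual treatment vs LPS, so small changes in these comparisons depend on the scaling.

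**Figure D1:**
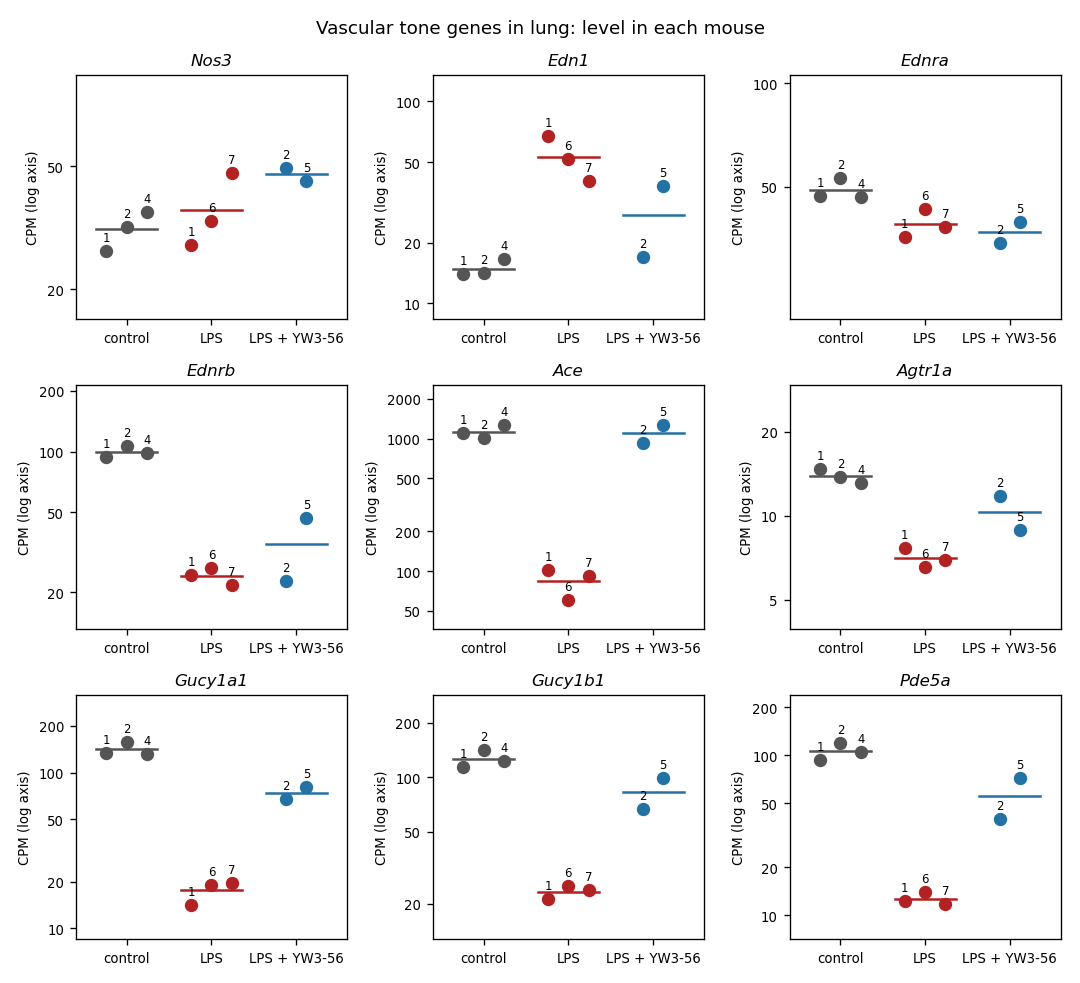
Level of each vascular tone gene in each lung library, in CPM on a log axis whose range differs between panels; points are single mice with their numbers, and lines are group means (3 control, 3 LPS and 2 dual-treated mice). *Ace* lies between 60.5 and 102 CPM in the LPS mice and between 923 and 1270 CPM in the other mice, whereas the dual-treated mice lie below the control mice for *Gucy1a1*, *Gucy1b1* and *Pde5a*.

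*Nos3* (ENSMUSG00000028978, chr5:24569787-24589475 on GRCm39) encodes the endothelial nitric oxide synthase. It was at 26.7, 31.9 and 35.6 CPM in control mice 1, 2 and 4, at 27.8, 33.4 and 47.5 CPM in LPS mice 1, 6 and 7, and at 49.3 and 44.8 CPM in dual-treated mice 2 and 5. The control and LPS mice overlapped, while both dual-treated mice lay above the control mice. The log2FC was 0.21 ± 0.19 (SE) in LPS vs control (edgeR adjusted p = 0.354) and 0.58 ± 0.21 in dual treatment vs control (edgeR adjusted p = 0.0869), so neither was called. The latter was called when only the 2 groups entered the fit (edgeR adjusted p = 0.0189) or when no count filter was used (edgeR adjusted p = 0.0174). The LPS vs control value was −0.06 with scaling by total count. LPS mouse 7 held the highest LPS value, and without it the LPS vs control value was −0.03, while that of dual treatment vs LPS went from 0.38 (edgeR adjusted p = 0.144) to 0.61 and was called (edgeR adjusted p = 0.0101). The latter was also called with scaling by total count (0.69, edgeR adjusted p = 0.0303). With LPS mouse 1 as the only LPS library these values were −0.17 and 0.75, the latter called (edgeR adjusted p = 0.013). Antisense genes, *Gm15587* and *Atg9b*, overlap 1635 of the 5003 exon bases of *Nos3*, and they held at most 223 counts in a library. Because the strand setting of the counting is not given in the sources used here, reads in the shared bases cannot be assigned with certainty.

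*Nos2*, the inducible synthase, behaved differently from *Nos3*. It was at 2.79, 2.53 and 3.82 CPM in the control mice, at 31.1, 22.7 and 21.4 CPM in the LPS mice and at 8.30 and 7.90 CPM in the dual-treated mice, without overlap between any of the groups. Its log2FC was 3.04 ± 0.21 in LPS vs control (edgeR adjusted p = 2.92e-06) and −1.63 ± 0.23 in dual treatment vs LPS (edgeR adjusted p = 0.000271). The dual-treated mice remained above the control mice, with a log2FC of 1.41 ± 0.23 (edgeR adjusted p = 0.0035). Of the 22 genes for nitric oxide synthesis and supply, 10 rose and 9 fell in LPS vs control, with a median log2FC of −0.05. *Cav1*, the caveolar scaffold that holds endothelial nitric oxide synthase inactive, fell from 1460 to 1530 CPM in the control mice to 122 to 274 CPM in the LPS mice, and was at 576 and 1060 CPM in the dual-treated mice. Against control, after dual treatment 5 of these 22 genes were higher and 1 lower, with a median of 0.28. Against LPS alone, 10 of the 22 were higher and 10 lower, with a median of −0.03. *Nos1*, the neuronal synthase, which is also a skeletal muscle gene, was at 1.10 and 3.52 CPM in LPS mice 6 and 7 and at or below 0.092 CPM in the other 6 libraries. Its call (edgeR adjusted p = 0.0111 in LPS vs control) thus rested on the libraries with skeletal muscle transcripts, and the part of these transcripts in it was not tested.

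Endothelin-1 is the ligand of the endothelin system. *Edn1* (ENSMUSG00000021367, chr13:42446301-42461466 on GRCm39) was at 13.9, 14.1 and 16.6 CPM in the control mice, at 67.4, 51.6 and 40.2 CPM in the LPS mice and at 16.9 and 37.9 CPM in the dual-treated mice. All LPS mice were above all others, and the dual-treated mice were divided: mouse 2 lay next to the highest control mouse and mouse 5 next to the lowest LPS mouse. The log2FC was 1.83 ± 0.29 in LPS vs control (edgeR adjusted p = 0.000351), a 3.56-fold rise, and 2.18 with LPS mouse 1 as the only LPS library. In dual treatment vs LPS it was −0.95 ± 0.32 (edgeR adjusted p = 0.0262), and −1.30 with LPS mouse 1 as the only LPS library. This call was lost without LPS mouse 1 (−0.75, edgeR adjusted p = 0.069) and without dual-treated mouse 2 (−0.51, edgeR adjusted p = 0.116), while the value was −1.67 without dual-treated mouse 5. With scaling by total count it was −0.62 (edgeR adjusted p = 0.089). In dual treatment vs control the value was 0.88 ± 0.31 (edgeR adjusted p = 0.0841), and it rested on which dual-treated mouse was kept: it was 1.32 and called without mouse 2 (edgeR adjusted p = 0.0107) and 0.15 without mouse 5 (edgeR adjusted p = 0.739). With all mice it was called by DESeq2 (adjusted p = 0.0267) and by edgeR without a count filter (edgeR adjusted p = 0.00324).

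The endothelin receptors fell unequally. *Ednrb* (ENSMUSG00000022122, chr14:104052053-104081900 on GRCm39) encodes the B receptor and was at 93.5, 107 and 98.8 CPM in the control mice, at 24.3, 26.5 and 21.8 CPM in the LPS mice and at 22.7 and 46.6 CPM in the dual-treated mice. Every mouse given LPS was below every control mouse, and dual-treated mouse 2 lay within the range of the LPS mice. The log2FC was −2.04 ± 0.22 in LPS vs control (edgeR adjusted p = 3.53e-05) and −1.52 ± 0.25 in dual treatment vs control (edgeR adjusted p = 0.00382). Of the 9 genes it showed the lowest value in dual treatment vs control, where 2.06% of all tested genes were lower still. That value was −2.16 without dual-treated mouse 5 and −1.13 without dual-treated mouse 2. Dual treatment vs LPS gave 0.52 ± 0.24 (edgeR adjusted p = 0.0905), with a 95% confidence interval from −0.02 to 1.06. That value rested on dual-treated mouse 5, being −0.11 without it and 0.92 without mouse 2 (edgeR adjusted p = 0.000693). With all mice it was called with scaling by total count (0.84, edgeR adjusted p = 0.0117) and without a count filter (0.55, edgeR adjusted p = 0.014). With LPS mouse 1 as the only LPS library the log2FC was −2.03 in LPS vs control and 0.51 in dual treatment vs LPS.

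*Ednra* (ENSMUSG00000031616, chr8:78386590-78451552 on GRCm39) encodes the A receptor of smooth muscle and pericytes. It was at 47.1, 52.9 and 46.6 CPM in the control mice, at 35.6, 43.0 and 38.1 CPM in the LPS mice and at 34.2 and 39.4 CPM in the dual-treated mice, so all 5 mice given LPS lay below the 3 control mice by a small margin. The log2FC was −0.33 ± 0.11 in LPS vs control (edgeR adjusted p = 0.0223) and −0.41 ± 0.12 in dual treatment vs control (edgeR adjusted p = 0.0493). Both calls were near the threshold. The first was lost without control mouse 2 (edgeR adjusted p = 0.0911), LPS mouse 1 (edgeR adjusted p = 0.078) or LPS mouse 7 (edgeR adjusted p = 0.0565), and the second whenever any control or dual-treated mouse was left out (edgeR adjusted p = 0.0503 to 0.267). With all mice the second was also lost with scaling by total count (edgeR adjusted p = 0.111) and without a count filter (edgeR adjusted p = 0.0586). The LPS vs control value was −0.61 with scaling by total count (edgeR adjusted p = 0.00185) and −0.45 with LPS mouse 1 as the only LPS library. Dual treatment vs LPS gave −0.08 ± 0.12 (edgeR adjusted p = 0.592), 0.24 with scaling by total count and 0.04 with LPS mouse 1 as the only LPS library. Antisense genes overlap 2670 of the 9005 exon bases of *Ednra* and held at most 87 counts.

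Within single libraries the balance of the receptors shifted toward *Ednra*, although per kilobase of exon *Ednrb* had the higher mean in each group. The log2 ratio of *Ednra* to *Ednrb* CPM, which does not depend on the scaling of libraries, was −0.99, −1.02 and −1.08 in the control mice, 0.55, 0.70 and 0.80 in the LPS mice, and 0.59 and −0.24 in dual-treated mice 2 and 5. Every mouse given LPS was above every control mouse. The mean difference was 1.71 in LPS vs control and 1.20 in dual treatment vs control, each with p = 0.1 in a two-sided exact permutation test, the smallest p that 3 mice against 3 or 2 can give. After adjustment over 18 such tests of 6 gene pairs the permutation p was 0.225, so no ratio could pass 0.05.

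Of the other genes of endothelin processing, 5 of 6 were tested, and in LPS vs control none rose and 2 fell, with a median log2FC of −0.09. *Ece1*, which cleaves the endothelin precursor, was at 372 to 398 CPM in the control mice, 321 to 392 CPM in the LPS mice and 380 and 347 CPM in the dual-treated mice, with a log2FC of −0.09 ± 0.11 in LPS vs control. *Edn3*, a ligand that prefers the B receptor, was at 14.4, 15.3 and 18.5 CPM in the control mice, 5.40, 3.23 and 2.46 CPM in the LPS mice and 11.6 and 25.4 CPM in the dual-treated mice. It thus moved opposite to *Edn1*, with a log2FC of −2.12 ± 0.35 in LPS vs control (edgeR adjusted p = 0.000458) and 2.32 ± 0.37 in dual treatment vs LPS (edgeR adjusted p = 0.000548). *Mme*, the neprilysin that degrades endothelins and natriuretic peptides, was lower in both groups given LPS, with a log2FC of −1.09 ± 0.18 in the LPS group (edgeR adjusted p = 0.000551) and −0.91 ± 0.21 in the dual-treatment group (edgeR adjusted p = 0.0166). *Edn2* stayed at or below 1.48 CPM and was not called in any comparison. Against control, after dual treatment 1 of the 5 was lower (median −0.08), and in dual treatment vs LPS 1 was higher and 1 lower (median 0.18).

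*Ace* (ENSMUSG00000020681, chr11:105858469-105880790 on GRCm39) encodes the enzyme that converts angiotensin I to angiotensin II and degrades bradykinin, and it is a hallmark of lung capillary endothelium. It was at 1100, 1010 and 1270 CPM in the control mice, at 102, 60.5 and 91.3 CPM in the LPS mice and at 923 and 1270 CPM in the dual-treated mice. The LPS mice were far below all other mice, and the dual-treated mice spanned the range of the control mice. The log2FC was −3.74 ± 0.22 in LPS vs control (edgeR adjusted p = 1.46e-06), a 13.3-fold fall, and only 1.97% of tested genes had a lower value. In dual treatment vs LPS it was 3.70 ± 0.24 (edgeR adjusted p = 5.29e-06), and 1.8% of tested genes had a higher value. With LPS mouse 1 as the only LPS library the values were −3.46 and 3.42. Dual treatment vs control gave −0.04 ± 0.22 (edgeR adjusted p = 0.929). The 95% confidence interval ran from −0.55 to 0.47, so differences within that range were not excluded. The value of −0.04 became 0.03 without control mouse 4, 0.14 without dual-treated mouse 2 and −0.32 without dual-treated mouse 5.

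*Agtr1a* (ENSMUSG00000049115, chr13:30518942-30566850 on GRCm39) encodes the receptor through which angiotensin II contracts vessels. It was at 14.7, 13.8 and 13.1 CPM in the control mice, at 7.65, 6.53 and 6.92 CPM in the LPS mice and at 11.8 and 8.87 CPM in the dual-treated mice. The dual-treated mice lay between the other groups and overlapped neither. The log2FC was −0.97 ± 0.16 in LPS vs control (edgeR adjusted p = 0.000491) and 0.55 ± 0.18 in dual treatment vs LPS (edgeR adjusted p = 0.0229). The LPS vs control value was −0.85 with LPS mouse 1 as the only LPS library. The call in dual treatment vs LPS was lost without LPS mouse 6 (0.49, edgeR adjusted p = 0.0633), without dual-treated mouse 2 (0.31, edgeR adjusted p = 0.221), with LPS mouse 1 as the only LPS library (0.42, edgeR adjusted p = 0.169) and when only the 2 groups entered the fit (edgeR adjusted p = 0.0794). Dual treatment vs control gave −0.42 ± 0.18 (edgeR adjusted p = 0.137), with −0.67 without dual-treated mouse 2 and −0.26 without mouse 5. The log2 ratio of *Ace* to *Agtr1a* was 6.23, 6.19 and 6.60 in the control mice, 3.73, 3.21 and 3.72 in the LPS mice and 6.29 and 7.16 in the dual-treated mice (difference −2.79 in LPS vs control, exact permutation p = 0.1 and 0.225 after adjustment).

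Of 16 other renin-angiotensin and kinin genes 12 were tested, and 4 rose and 4 fell in LPS vs control, with a median log2FC of −0.03. *Enpep*, the aminopeptidase that trims angiotensin II, was at 104 to 125 CPM in the control mice, 27.4 to 41.4 CPM in the LPS mice and 48.5 and 74.6 CPM in the dual-treated mice. *Mas1*, a receptor for angiotensin fragments, fell in the LPS group but held at most 22 counts in a library. *Agtr2* had at most 2 counts and was not tested. Against control, after dual treatment 1 of the 12 was higher and 2 were lower (median 0.04), the largest called change being that of the kinin receptor *Bdkrb1*, at 5.94 and 3.82 CPM against 1.69 to 2.57 CPM in the control mice. Against LPS alone, 4 were higher and 3 lower (median 0.18).

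Soluble guanylyl cyclase is the nitric oxide receptor. *Gucy1a1* (ENSMUSG00000033910), its alpha-1 subunit, was at 134, 157 and 132 CPM in the control mice, at 14.2, 19.1 and 19.7 CPM in the LPS mice and at 67.5 and 80.5 CPM in the dual-treated mice. *Gucy1b1* (ENSMUSG00000028005), the beta-1 subunit without which no active dimer forms, was at 114, 142 and 122 CPM, at 21.2, 25.0 and 23.8 CPM, and at 66.7 and 98.7 CPM in the same order. For both subunits the groups were separate, with the LPS mice lowest and the dual-treated mice between LPS and control. The log2FC of *Gucy1a1* was −2.99 ± 0.15 in LPS vs control (edgeR adjusted p = 6.34e-07) and 2.07 ± 0.15 in dual treatment vs LPS (edgeR adjusted p = 9.61e-06). That of *Gucy1b1* was −2.43 ± 0.16 (edgeR adjusted p = 2.08e-06) and 1.82 ± 0.17 (edgeR adjusted p = 2.61e-05). With LPS mouse 1 as the only LPS library the values were −3.30 and 2.37 for *Gucy1a1* and −2.56 and 1.95 for *Gucy1b1*. In dual treatment vs control *Gucy1a1* was lower by −0.93 ± 0.15 (edgeR adjusted p = 0.00414), a call kept when any control or dual-treated mouse was left out. For *Gucy1b1* the value was −0.61 ± 0.17 (edgeR adjusted p = 0.0387), and the call was lost without control mouse 1, 2 or 4 (edgeR adjusted p = 0.0579, 0.123 and 0.078) and without dual-treated mouse 2 (−0.38, edgeR adjusted p = 0.221), while it was −0.95 without dual-treated mouse 5. It was also lost with scaling by total count (−0.57, edgeR adjusted p = 0.0613) and was at the threshold when only the 2 groups entered the fit (edgeR adjusted p = 0.0499).

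The log2 ratio of *Gucy1a1* to *Gucy1b1* was 0.23, 0.14 and 0.11 in the control mice, −0.58, −0.39 and −0.27 in the LPS mice, and 0.02 and −0.29 in the dual-treated mice. The control mice were above all others (difference −0.58 in LPS vs control, exact permutation p = 0.1 and 0.225 after adjustment). The alternative alpha subunit *Gucy1a2* was at 1.31 to 2.16 CPM in the control mice, 0.0558 to 0.289 CPM in the LPS mice and 0.227 and 0.702 CPM in the dual-treated mice, so it was far below *Gucy1a1* in reads and did not rise as *Gucy1a1* fell.

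*Pde5a* (ENSMUSG00000053965), the enzyme that degrades cyclic GMP in vascular smooth muscle and the target of sildenafil, fell together with the cyclase. It was at 93.9, 119 and 105 CPM in the control mice, at 12.3, 14.0 and 11.8 CPM in the LPS mice and at 40.0 and 71.6 CPM in the dual-treated mice. The log2FC was −3.06 ± 0.21 in LPS vs control (edgeR adjusted p = 2.55e-06), an 8.35-fold fall, and 2.13 ± 0.22 in dual treatment vs LPS (edgeR adjusted p = 4.71e-05). With LPS mouse 1 as the only LPS library the values were −3.10 and 2.18. Dual treatment vs control gave −0.93 ± 0.22 (edgeR adjusted p = 0.0195), a call that was lost without control mouse 2 (−0.84, edgeR adjusted p = 0.0684), control mouse 4 (−0.96, edgeR adjusted p = 0.0515) or dual-treated mouse 2 (−0.60, edgeR adjusted p = 0.0704), and whose value was −1.44 without dual-treated mouse 5. The log2 ratio of *Gucy1a1* to *Pde5a* was 0.33 to 0.51 in the control mice, 0.21 to 0.74 in the LPS mice and 0.76 and 0.17 in the dual-treated mice, with overlap between all groups.

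**Figure D2:**
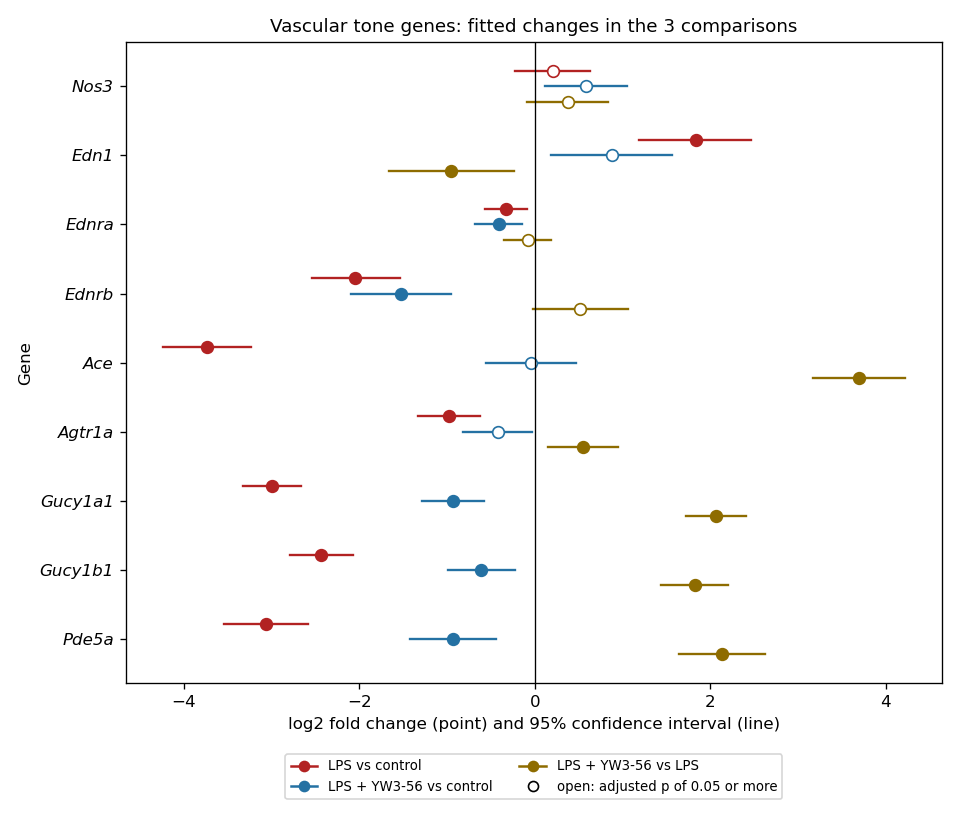
Log2 fold change (horizontal axis) of each vascular tone gene in the 3 comparisons, which share libraries; points are edgeR estimates from 8 mice, lines are 95% confidence intervals, and open points have an adjusted p of 0.05 or more. *Ace* is at −3.74 in LPS vs control and at −0.04 in dual treatment vs control, whereas *Ednrb* is at −2.04 and −1.52.

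Downstream of the cyclase, 13 of 14 genes of cyclic GMP signalling were tested, and in LPS vs control 2 rose and 6 fell, with a median log2FC of −0.11. *Prkg1*, the cyclic GMP-dependent kinase of smooth muscle, was at 20.2, 21.2 and 15.5 CPM in the control mice, 13.1, 8.14 and 10.2 CPM in the LPS mice and 7.90 and 12.2 CPM in the dual-treated mice. It was lower than control in both groups given LPS, by −0.85 ± 0.23 (edgeR adjusted p = 0.00791) and −0.92 ± 0.26 (edgeR adjusted p = 0.0397). The related kinase gene *Prkg2* went from 22.0 to 27.8 CPM in the control mice to 3.29 to 4.91 CPM in the LPS mice, and was at 13.0 and 22.7 CPM in the dual-treated mice. *Pde1b*, a phosphodiesterase activated by calcium, rose in the LPS group (log2FC 1.69 ± 0.12, edgeR adjusted p = 2.44e-06) and in the dual-treatment group (1.42 ± 0.12, edgeR adjusted p = 0.000141). Against control, after dual treatment 2 of the 13 were higher and 2 lower (median −0.30), and in dual treatment vs LPS 3 were higher and 1 lower (median −0.06).

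Natriuretic peptides raise cyclic GMP through receptors with their own cyclase. Of the 8 genes of this list 7 were tested, and 1 rose and 3 fell in LPS vs control (median −0.23), while 4 were lower in dual treatment vs control (median −0.65). *Npr1*, the receptor of atrial natriuretic peptide, was at 229, 239 and 258 CPM in the control mice, 48.6, 41.0 and 43.4 CPM in the LPS mice and 138 and 171 CPM in the dual-treated mice. Its order was that of the soluble cyclase: log2FC −2.45 ± 0.12 in LPS vs control (edgeR adjusted p = 6.16e-07), 1.80 ± 0.13 in dual treatment vs LPS (edgeR adjusted p = 7.64e-06) and −0.65 ± 0.13 in dual treatment vs control (edgeR adjusted p = 0.00935). *Npr3*, the clearance receptor, fell less than *Npr1* in the LPS group, by −0.44 ± 0.15 (edgeR adjusted p = 0.024). In the dual-treatment group it was lower than control by −0.75 ± 0.17 (edgeR adjusted p = 0.0162), which was no less than for *Npr1*. Against LPS alone, 2 genes were higher and 2 lower (median −0.31). The largest of these changes was that of *Nppa*, which encodes atrial natriuretic peptide, at 5.49 and 6.94 CPM in the dual-treated mice, 18.4 to 53.6 CPM in the LPS mice and 13.2 to 23.8 CPM in the control mice. Heart muscle transcripts moved with it: 6 of 8 cardiac muscle markers were lower in dual treatment vs LPS and 6 of 8 in dual treatment vs control, and their sum was 260 and 251 CPM in the dual-treated mice, 583 to 930 CPM in the LPS mice and 444 to 1210 CPM in the control mice, with *Myh6* the most abundant. None of these markers was at 0, and their part in the *Nppa* result was not tested.

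Adrenomedullin relaxes vessels through the receptor *Calcrl* with its partner *Ramp2* or *Ramp3*. *Calcrl* was at 719, 830 and 719 CPM in the control mice, 22.2, 24.5 and 24.8 CPM in the LPS mice and 352 and 572 CPM in the dual-treated mice. *Ramp2* was at 547, 515 and 527 CPM, at 31.1, 37.8 and 36.6 CPM, and at 462 and 520 CPM in the same order. The LPS mice were far below all control mice for both genes, with log2FC of −4.99 ± 0.20 for *Calcrl* (edgeR adjusted p = 3.2e-07) and −3.91 ± 0.12 for *Ramp2* (edgeR adjusted p = 1.04e-07). *Ramp3* and the ligand *Adm*, named after their values were seen, went the other way: *Ramp3* was at 6.26 to 7.40 CPM in the control mice and 59.6 to 90.7 CPM in the LPS mice, and *Adm* had a log2FC of 2.67 ± 0.30 in LPS vs control (edgeR adjusted p = 3.75e-05). In the dual-treated mice *Adm* was at 19.5 and 15.1 CPM and *Ramp3* at 10.7 and 18.0 CPM. Of 10 genes on the list 9 were tested, and 4 rose and 4 fell in LPS vs control (median −0.23), 1 was higher and 2 were lower in dual treatment vs control (median −0.11), and 3 were higher and 4 lower in dual treatment vs LPS (median −0.79).

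Among 7 prostanoid genes 2 rose and 2 fell in LPS vs control (median 0.25). *Ptgis*, the prostacyclin synthase, was at 110 to 127 CPM in the control mice, 101 to 142 CPM in the LPS mice and 104 and 130 CPM in the dual-treated mice, with overlap between all groups. The prostacyclin receptor *Ptgir* was highest after dual treatment, with both mice at or above 13.2 CPM against 7.14 to 7.63 CPM in the control mice and 6.53 to 11.1 CPM in the LPS mice (log2FC 1.17 ± 0.24 against control, edgeR adjusted p = 0.0121). *Tbxa2r*, the receptor of the constrictor thromboxane, fell in the LPS group by −2.47 ± 0.40 (edgeR adjusted p = 0.000423). Against control, after dual treatment 3 of the 7 were higher and none lower (median 0.16), and likewise 3 and none in dual treatment vs LPS (median 0.40).

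These signals act on the contractile machinery. Of 12 genes of smooth muscle contraction 2 rose and 4 fell in LPS vs control (median −0.15), 3 were lower in dual treatment vs control (median −0.36), and 4 were higher and 5 lower in dual treatment vs LPS (median −0.05). *Mylk*, the myosin light chain kinase, was at 214 to 222 CPM in the control mice, 80.1 to 85.8 CPM in the LPS mice and 122 and 158 CPM in the dual-treated mice. *Ppp1r14a*, an inhibitor of myosin phosphatase, was at 84.1 to 92.7 CPM in the control mice, 9.21 to 12.4 CPM in the LPS mice and 40.1 and 91.0 CPM in the dual-treated mice.

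Markers of the cell types that carry the vascular tone genes moved as well. In bulk lung, fewer cells of a type and less RNA per cell cannot be told apart. Of 12 endothelial markers 1 rose and 8 fell in LPS vs control (median log2FC −1.68), and their sum was 4850 to 5390 CPM in the control mice, 2340 to 2950 CPM in the LPS mice and 4270 and 4670 CPM in the dual-treated mice. These markers did not move as a block. *Erg*, a transcription factor of endothelium, was at 144 to 154 CPM in the control mice, 8.60 to 16.5 CPM in the LPS mice and 88.9 and 105 CPM in the dual-treated mice. *Egfl7* was the most abundant of these markers in the control mice, *Cdh5* in the LPS mice and *Pecam1* in the dual-treated mice. *Cdh5* and the tight junction gene *Cldn5*, both named after their values were seen, were not called in any comparison. *Cdh5* was at 590 to 737 CPM in the control mice, 642 to 938 CPM in the LPS mice and 510 and 590 CPM in the dual-treated mice, and *Cldn5* at 577 to 649 CPM, 576 to 638 CPM, and 698 and 581 CPM. Read against *Cdh5*, *Nos3* had log2 ratios of −4.47 to −4.37 in the control mice, −5.08, −4.30 and −3.76 in the LPS mice and −3.37 and −3.72 in the dual-treated mice. This ratio depends on the marker chosen, because *Cdh5* did not fall with the 8 endothelial markers called lower in LPS vs control. Ratios of *Nos3* to those 8 were not computed.

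For 8 markers of aerocytes, the capillary cells in which *Ednrb* is a known marker, the sum was 1120 to 1230 CPM in the control mice, 385 to 441 CPM in the LPS mice and 827 and 952 CPM in the dual-treated mice, and 7 of 8 fell in LPS vs control (median −2.22), with *Tbx2* the most abundant in the control mice. For 8 markers of general capillary cells the sum was 2720 to 2930 CPM, 1060 to 1290 CPM, and 2410 and 2360 CPM, with 6 of 8 lower in LPS vs control (median −1.43) and *Ptprb* the most abundant in the control mice. Against control, 3 of 8 aerocyte markers were lower after dual treatment and none higher (median −0.66), and 4 of 8 general capillary markers were lower and 1 higher (median −0.34). For 8 pericyte markers, led by *Pdgfrb*, the sum was 351 to 389 CPM, 151 to 170 CPM, and 303 and 302 CPM, and 7 of 8 fell in LPS vs control (median −1.24). *Higd1b*, the pericyte marker with the largest change in LPS vs control, was at 25.0 to 31.6 CPM, 1.01 to 1.56 CPM, and 14.3 and 23.6 CPM. Its groups were separate with the dual-treated mice in between, as for the soluble cyclase and *Pde5a*. Among the other pericyte markers, *Cox4i2*, *Notch3* and *Trpc6* had this order too, whereas *Pdgfrb*, *Cspg4*, *Kcnj8* and *Abcc9* did not. Some of these were named after their values were seen. The sum of 8 alveolar fibroblast markers, of which *Inmt* was the most abundant outside the LPS group and *Ces1d* within it, was 5170 to 5510 CPM, 1540 to 1590 CPM, and 2720 and 3590 CPM, with 1 of 8 higher and 5 lower in LPS vs control (median −0.81).

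Smooth muscle markers took another course. Of 8 such markers 1 rose and 3 fell in LPS vs control (median 0.12), and the sum overlapped, at 282 to 358 CPM in the control mice and 277 to 404 CPM in the LPS mice, with *Des* the most abundant in the control mice. *Des* is also a skeletal muscle gene and was at 77.7 CPM in LPS mouse 1 but at 129 and 183 CPM in LPS mice 6 and 7, and the part of the skeletal muscle transcripts in this sum was not tested. *Acta2*, the smooth muscle actin, rose from 77.5 to 103 CPM in the control mice to 121 to 141 CPM in the LPS mice, while *Hhip* (log2FC −1.84), *Lmod1* (−1.15) and *Synpo2* (−0.46), the last named after its value was seen, fell. In the dual-treated mice the smooth muscle sum was 166 and 225 CPM, and *Cnn1*, a calponin of contractile smooth muscle, was at 5.35 and 6.50 CPM against 22.5 to 33.2 CPM in the control mice. *Ednra*, a gene of smooth muscle and pericytes, and *Prkg1*, a smooth muscle gene, were lower than control in the dual-treatment group as well. They were also lower in the LPS group (log2FC −0.33 and −0.85). There the smooth muscle sum overlapped that of the control mice, and the pericyte sum was lower, at 151 to 170 CPM against 351 to 389 CPM. The part of either cell type in the changes of *Ednra* and *Prkg1* was not tested.

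Epithelial and neutrophil markers changed too. Of 8 alveolar type 2 cell markers, led by *Sftpc*, 1 rose and 6 fell in LPS vs control, with a sum of 32700 to 40900 CPM in the control mice, 17300 to 29400 CPM in the LPS mice and 21600 and 32000 CPM in the dual-treated mice. Of 8 alveolar type 1 cell markers, led by *Ager*, 1 rose and 4 fell, with sums of 5320 to 5740 CPM, 2590 to 4430 CPM, and 3020 and 3920 CPM. All 8 neutrophil markers, led by *S100a9*, rose in LPS vs control, and their sum was 128 to 231 CPM in the control mice, 1910 to 3060 CPM in the LPS mice and 1800 and 2480 CPM in the dual-treated mice. No marker of any of these lists was at 0 in all libraries. The part of cell composition in the changes of the vascular tone genes was not tested.

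Compared between genes per kilobase of exon, *Ace* stood first in the control group with a mean of 202 ± 23.7 CPM per kb (SD, n = 3). *Gucy1b1* (29.8), *Ednrb* (22.2), *Gucy1a1* (13.5) and *Pde5a* (9.93 CPM per kb) followed, each with a range separate from its neighbours. *Nos3*, *Edn1* and *Ednra* (6.27, 5.43 and 5.43 CPM per kb) could not be ordered because their ranges overlapped, and *Agtr1a* was last with 3.00 CPM per kb. The LPS group had another order. *Edn1* came first with 19.4 ± 4.97 CPM per kb, overlapping *Ace* at 15.1 ± 3.84, and *Nos3*, *Gucy1b1* and *Ednrb* came next at 7.24, 5.52 and 5.38 CPM per kb with overlapping neighbours. *Ednra* followed at 4.32 CPM per kb, *Gucy1a1* and *Agtr1a* overlapped at 1.69 and 1.52 CPM per kb, and *Pde5a* was last at 1.19 CPM per kb. In the dual-treatment group *Ace* (196 ± 43.8 CPM per kb, n = 2) and *Gucy1b1* (19.5 CPM per kb) again came first. *Edn1*, *Nos3*, *Ednrb*, *Gucy1a1*, *Pde5a* and *Ednra* formed a run from 9.98 to 4.08 CPM per kb in which each overlapped the next, and *Agtr1a* was last at 2.23 CPM per kb.

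The likeness of patterns was measured as the root-mean-square difference of centred log2 CPM over the 8 mice, among 15612 genes with a mean of at least 1 CPM. Of the 36 pairs within the 9 genes, *Gucy1a1* and *Pde5a* were closest (0.204), followed by *Gucy1a1* and *Gucy1b1* (0.273) and by *Gucy1b1* and *Pde5a* (0.287), while *Edn1* and *Ace* were farthest apart (2.57). For each gene, the 3 closest among all genes compared lay outside the list. *Atg16l2* (0.112), *Stard8* and *Atp1b2* were most like *Gucy1a1*, *Zbtb4* (0.124), *Dubr* and *Rarg* most like *Gucy1b1*, and *Lbh* (0.133), *G0s2* and *Raver2* most like *Pde5a*. For *Ace* these were *Tspan7* (0.184), *Zfp712* and *Zfp641*, and for *Ednrb* they were *Rspo1* (0.186), *Ackr4* and *Gata3*. *Edn1* was followed most closely by *Stx11* (0.216), *Wdr25* and *Cdkn2b*. The distances depend on how far a gene ranges, and the genes that ranged least had small ones: *Nos3* had *Abcc3* (0.107), *Me2* and *Lrrc71*, *Ednra* had *Slc6a8* (0.0742), *Itga6* and *1700024G13Rik*, and *Agtr1a* had *Mmd* (0.0791), *Lpar6* and *Loxl2*.

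The genes for both cyclase subunits are neighbours. On GRCm39 *Gucy1b1* lies at chr3:81939312-81982022 and *Gucy1a1* at chr3:81999733-82053216, both on the minus strand, 17710 bases apart and with 0 annotated genes between them. *Pde5a* lies on the plus strand of the same chromosome at chr3:122522594-122653023. Because these 3 genes moved most alike, the 200 bases upstream of the first annotated protein-coding start of each are shown 5′ to 3′ on the strand of the gene, at chr3:82053217-82053416 for *Gucy1a1*, chr3:81982007-81982206 for *Gucy1b1* and chr3:122522394-122522593 for *Pde5a*. Capitals mark matches on either strand to the motifs listed after the sequences.
Gucy1a1: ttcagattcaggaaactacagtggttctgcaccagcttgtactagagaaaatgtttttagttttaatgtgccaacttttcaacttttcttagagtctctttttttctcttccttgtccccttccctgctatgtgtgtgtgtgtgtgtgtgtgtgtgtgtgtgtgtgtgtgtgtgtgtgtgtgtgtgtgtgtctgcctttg
Gucy1b1: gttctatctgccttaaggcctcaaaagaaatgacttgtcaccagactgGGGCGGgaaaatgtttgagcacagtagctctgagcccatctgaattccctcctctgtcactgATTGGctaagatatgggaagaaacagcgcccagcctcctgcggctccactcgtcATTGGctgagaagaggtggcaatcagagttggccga
Pde5a: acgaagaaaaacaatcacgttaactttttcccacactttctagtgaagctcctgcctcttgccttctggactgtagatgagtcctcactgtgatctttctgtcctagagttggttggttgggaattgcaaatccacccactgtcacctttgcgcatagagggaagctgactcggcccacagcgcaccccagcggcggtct

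The motifs, chosen after the sequences had been seen, were AP-1 (TGANTCA), the GC box (GGGCGG), the CCAAT box (CCAAT), the TATA box (TATAAA), and the NF-κB and CArG consensus sequences. *Gucy1b1* held 1 GC box and 2 CCAAT boxes, the latter in reverse orientation and ending 86 and 32 bases before the start, and none of these matches overlapped. The windows of *Gucy1a1* and *Pde5a* held 0 matches, and that of *Gucy1a1* held a long GT repeat close to the start. Among the windows of 15260 tested protein-coding genes 38.0% held a GC box, 30.8% a CCAAT box, 6.78% a TATA box, 4.17% an AP-1 match, 6.78% an NF-κB match and 0.904% a CArG box. Over all 9 genes 3 windows held a GC box, 2 a CCAAT box, 1 a TATA box and 0 an AP-1, NF-κB or CArG match. A match describes letters in the window and does not show binding, and the annotated start need not be the one used in lung. Annotations place the starts of several of the 9 genes at different positions, so the windows and the matches in them depend on the annotation.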

How the data were processed

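RNA-seq of lung from 8 mice (3 control, 3 LPS and 2 dual-treated, grouped by the treatment label) was analysed. The authors checked the reads with FastQC 0.11.9, trimmed them with Trim Galore, aligned them to GRCm39 with HISAT2 2.2.1, counted them per gene with featureCounts 2.0.1 and deposited raw counts without normalization. The annotation release, strand setting and treatment of multi-mapping reads are not given in the sources used here, so genes with overlapping neighbours are uncertain. Of 55416 gene identifiers 54749 matched GENCODE M39 (GRCm39), and the other 667 held 0.0533% of counts.

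The fit used edgeR 4.0.16 under R 4.3.3, with filterByExpr, TMM and 1 quasi-likelihood fit of 8 libraries (5 residual degrees of freedom), with Benjamini-Hochberg adjustment over 18560 genes. Standard errors were taken from the log2FC and its F statistic. Ratios within libraries were compared by two-sided exact permutation tests. The fit was tested on simulated counts of 18560 genes with 200 changed by 2 on the log2 scale, and recovered 91% in LPS vs control and 89.5% in dual treatment vs control. Far fewer genes were changed there than were called in the data. Smaller changes and dual treatment vs LPS were not simulated, so these rates do not apply to them. CPM per kb used merged exon length. Replicate libraries differed by more than sampling noise (chi-square per gene 8.73 to 44.89). The promoter windows were read from GRCm39.

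The 9 genes, the pathway lists and the marker lists were chosen with earlier results of these data known. Besides the 9 genes, genes to name were 12 pathway genes set by name and, in each list, the 3 largest called changes in LPS vs control and the largest in each other comparison. Some of these are left out of the text, and abundant markers of each cell type are added. For likeness, the 3 closest genes are named. The alternatives were DESeq2 1.42.0, other scalings, filters and call rules, the 2 compared groups only, leaving out each mouse, and LPS mouse 1 as the only LPS library.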

Additional observations from a re-analysis of the deposited data

How the results depend on the processing

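In LPS vs control, 6 of the 9 vascular tone genes were called under both rules with a fold change over 2, 8 with DESeq2 and under every other scaling, filter and choice of samples tried, and 7 to 8 when 1 mouse was left out. In dual treatment vs LPS the number was 4 under the fold rules, 5 to 7 under the others and 5 to 7 with 1 mouse left out. In dual treatment vs control 5 genes were called, but 1 under either fold rule (with p or adjusted p under 0.05), 3 with library size only, 5 to 6 under the others, and between 2 and 4 when 1 mouse was left out. Over all tested genes, 2997 of 18560 were called with all mice, 1553 of 18419 without control mouse 2, 1220 of 19538 without dual-treated mouse 2 and 3225 of 19620 without dual-treated mouse 5. Under the fold rules with p and with adjusted p, 1944 and 1327 of 18560 tested genes were called in dual treatment vs control. With library size only the number was 2846. The fold rules gave 7450 and 7279 in LPS vs control and 6554 and 6264 in dual treatment vs LPS. The losses under the fold rules follow from the stricter rule. For the others the cause was not tested.

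The direction of 4 genes changed in places. *Nos3* in LPS vs control (0.21) was −0.06 with library size only, between −0.03 and 0.37 with 1 mouse left out and −0.17 with LPS mouse 1 as the only LPS library. *Ednra* in dual treatment vs LPS (−0.08) was 0.24 with library size only and 0.04 with LPS mouse 1 as the only LPS library. *Ace* in dual treatment vs control (−0.04) was 0.03 without control mouse 4, and with 1 mouse left out it ran from −0.32 to 0.14. *Ednrb* in dual treatment vs LPS (0.52) ran from −0.11, without dual-treated mouse 5, to 0.92. For single genes, 125 of 135 values in LPS vs control, 87 of 117 in dual treatment vs control and 106 of 126 in dual treatment vs LPS kept direction and side of the threshold. None of the 4 reversed values was called in the fit of all 8 mice, and the cause was not tested. The differences of within-library ratios moved by less than the spread between mice with a pseudocount of 1 count, and no ratio could pass the threshold in this design.

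No paired analysis was made, because each mouse was a separate animal and the paper describes random division into groups without pairing. The 2 dual-treated mice differed by more than 2-fold in *Edn1* and *Ednrb*, so their group means rest on unlike values. Counts of the 9 genes ran from 113 to 28910 per library, and whether they limited the results was not tested.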
